A study of Mus musculus with 12 samples.

Results

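A set of 10 PPAR pathway genes was followed across RNA-seq libraries of thymic epithelial cells (TECs), a stromal population needed for T cell development: the receptors Ppara, Ppard and Pparg, the coactivator Ppargc1a, and the lipid-use genes Angptl4, Pdk4, Acot1, Acot2, Plin2 and Lpl. These are 10 of the 27179 genes listed in the count table, matched there by symbol, and all 10 passed the filter on low counts that left 18670 genes. The set was chosen by measured values, the rise of PPAR targets in WM-3835 over DMSO libraries, so WM-3835 and DMSO values of these genes are given as a description with no test. The rule of choice did not use knockout or control values, and the 10 genes were tested there. Earlier results of these data were known when the genes were chosen. The knockout tests also use a spread per gene estimated from all 12 libraries. The name given to the set, genes raised by the inhibitor, held for 6 of the 10: Lpl, Ppard and Pparg were lower with WM-3835 in every library, and the Ppara values overlapped.

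The TECs were sorted from C57BL/6 fetal organ cultures of thymic lobes from embryonic day 15.5, in which 2'-deoxyguanosine at 1.35 mM over 4 to 5 days removed thymocytes and an activating antibody to RANK at 10 µg/mL over 3 more days brought on AIRE. The 4 groups of 3 biological replicates were RosaCre-ERT2 Kat7 fl/fl cultures given tamoxifen (the Kat7 knockout), cultures of a control genotype given tamoxifen, wild-type cultures given WM-3835, and wild-type cultures given the solvent DMSO. KAT7, also called HBO1, is a histone acetyltransferase, and WM-3835 is a small-molecule inhibitor of it. RosaCre-ERT2 is a Cre recombinase expressed from a broadly active locus and switched on by tamoxifen, and is not specific to TECs. The count columns of the controls are headed wt, and the sample labels give no more of their genotype than the word control. The dose and duration of WM-3835 are not given in the labels, and the sample titles spell the compound WM-3825. The total counts ran from 26656847 to 52368012 per library.

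Peroxisome proliferator-activated receptors (PPARs) are nuclear receptors that bind fatty acids and their derivatives, pair with a retinoid X receptor and sit on a repeated hexamer in the DNA near their target genes. PPARα and PPARδ are known for switching on genes of fatty acid use in liver, muscle and heart, and PPARγ for building fat cells. Several targets, among them Angptl4, Pdk4 and Plin2, respond in many tissues whichever of the receptors is active. All of this is background and was not measured here.

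The libraries matched their labels for Kat7, at 0.606 to 0.869 CPM (counts per 1000000, TMM-scaled) in the knockout and 76.0 to 89.0 CPM in the control libraries, a log2 change of -6.74 (SE 0.135, adjusted p = 1.31e-16). Kat7 was at 98.5 to 100.4 CPM with WM-3835 and 84.6 to 88.9 CPM with DMSO. The controls varied most, with a biological coefficient of variation of 0.294 in knockout, 0.469 in control, 0.125 in WM-3835 and 0.103 in DMSO libraries. Xist, the RNA of the inactive X chromosome, was at 1709, 1191 and 4.94 CPM in the knockout libraries, 2.34 to 3.17 CPM in the controls, 846 to 2118 CPM with WM-3835 and 1382 to 1898 CPM with DMSO, so that Xist level and genotype partly coincide. The 12 thymic epithelial markers, among them Epcam, Krt5 and Foxn1, summed to 16170 to 17234 CPM in knockout, 14425 to 17719 CPM in control, 10468 to 12609 CPM in WM-3835 and 14057 to 16857 CPM in DMSO libraries. In the knockout 4 of these 12 markers fell and 2 rose, and with WM-3835 7 fell and 1 rose. Across all tested genes 8.06% fell and 6.12% rose in the knockout, and 9.35% fell and 9.34% rose with WM-3835. Adipocyte markers summed to at most 137.5 CPM, fibroblast markers to at most 234.2 CPM and macrophage and dendritic cell markers to at most 133.8 CPM in any library.

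On GRCm38.p6, the assembly also known as mm10, the receptor genes are Ppara (Entrez ID 19013) on chromosome 15 from 85734910 to 85806851, Ppard (Entrez ID 19015) on chromosome 17 from 28232754 to 28301469 and Pparg (Entrez ID 19016) on chromosome 6 from 115360879 to 115490404. The coactivator gene is Ppargc1a (Entrez ID 19017) on chromosome 5 from 51454249 to 52115853. The lipid-use genes are Angptl4 (Entrez ID 57875) on chromosome 17 from 33774900 to 33781575, Pdk4 (Entrez ID 27273) on chromosome 6 from 5483351 to 5496278 and Acot1 (Entrez ID 26897) on chromosome 12 from 84009502 to 84017670, with Acot2 (Entrez ID 171210) on chromosome 12 from 83987861 to 83993877, Plin2 (Entrez ID 11520) on chromosome 4 from 86626910 to 86670217 and Lpl (Entrez ID 16956) on chromosome 8 from 68880555 to 68906932. All are protein-coding. Pparg is overlapped by 1 antisense gene and Ppargc1a by 4 other genes in GENCODE, none of them in the count table. Of the 4, Gm42613 lies on the opposite strand and the others lie on the same strand as Ppargc1a. Reads from shared bases cannot be told apart without strand for opposite-strand genes, nor even with strand for same-strand genes.

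Promoters of the 4 lipid-use genes that were higher with WM-3835 and have an entry in the RefSeq table (GRCm38.p6) are printed because these genes are known PPAR targets. Each runs from 250 bases before to 50 bases after the start given in the table, 5′ to 3′ on the gene's strand. The motif searched, on both strands, was the PPAR and retinoid X receptor repeat: AGGTCA, any 1 base (N), then AGGTCA again, 13 letters of which 12 are fixed. Capitals mark a match with at most 2 mismatches.
Pdk4, chr6:5496229-5496528, minus strand: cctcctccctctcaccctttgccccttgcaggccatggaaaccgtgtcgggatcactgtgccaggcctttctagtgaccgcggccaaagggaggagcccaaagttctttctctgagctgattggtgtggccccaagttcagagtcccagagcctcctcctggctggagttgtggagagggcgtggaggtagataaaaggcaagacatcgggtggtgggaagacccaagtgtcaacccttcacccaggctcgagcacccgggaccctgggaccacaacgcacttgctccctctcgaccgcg
Acot1, chr12:84009252-84009551, plus strand: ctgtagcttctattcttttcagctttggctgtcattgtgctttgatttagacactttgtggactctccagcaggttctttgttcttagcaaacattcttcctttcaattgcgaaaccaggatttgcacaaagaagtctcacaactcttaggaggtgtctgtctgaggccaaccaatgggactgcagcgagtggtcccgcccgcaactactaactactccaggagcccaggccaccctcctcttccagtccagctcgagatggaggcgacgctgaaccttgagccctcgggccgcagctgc
Acot2, chr12:83987611-83987910, plus strand: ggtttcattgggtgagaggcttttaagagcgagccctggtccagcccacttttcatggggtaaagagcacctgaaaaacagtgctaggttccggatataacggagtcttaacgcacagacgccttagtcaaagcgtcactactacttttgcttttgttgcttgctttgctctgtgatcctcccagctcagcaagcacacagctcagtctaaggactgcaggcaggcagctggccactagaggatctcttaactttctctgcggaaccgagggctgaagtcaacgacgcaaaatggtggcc
Plin2, chr4:86670010-86670309, minus strand: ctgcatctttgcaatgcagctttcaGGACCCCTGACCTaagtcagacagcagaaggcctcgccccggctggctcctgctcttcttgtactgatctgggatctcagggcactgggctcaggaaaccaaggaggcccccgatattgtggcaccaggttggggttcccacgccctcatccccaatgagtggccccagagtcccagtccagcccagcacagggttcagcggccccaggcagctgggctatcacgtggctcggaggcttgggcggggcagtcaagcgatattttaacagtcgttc

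The capitals in the Plin2 promoter, GGACCCCTGACCT, are the motif read on the opposite strand with 2 mismatches. They lie 225 to 213 bases before the start given in the table. For Plin2 that start lies inside the gene as placed above, whose 5′ end, at 86670217, falls within the printed window. A match that close was in 3.86% of all 32851 promoter windows of the table. Pdk4 and Acot1 came no closer than 4 mismatches, a distance met or bettered by 79.8% of windows, and Acot2 no closer than 3, met or bettered by 24.6%. A single AGGTCA, which the full motif holds at either end, was in the Plin2 window and in none of the other 3, and in 16.3% of all windows. Of the 10 genes, 8 had an entry, and Angptl4 and Lpl had none. These letter matches describe the windows only and say nothing of binding.

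Angptl4 and Pdk4 were the genes of the set furthest above DMSO in the inhibitor libraries. Angptl4 encodes a secreted inhibitor of lipoprotein lipase, and Pdk4 a mitochondrial kinase that shuts down pyruvate dehydrogenase and so spares glucose when fat is burned. Angptl4 stood at 11.9, 12.5 and 13.0 CPM with WM-3835, against 0.559, 0.00 and 0.304 CPM with DMSO. Its fitted log2 difference was 5.28 (SE 0.625), 38.9-fold, and it rested on 375 to 533 counts per WM-3835 library and on 29, 0 and 13 counts with DMSO. With so few DMSO counts the fitted size hung on single libraries: the log2 difference was 6.13 without DMSO 1 and 4.83 without DMSO 2. Every inhibitor library was far above every DMSO library, where the gene was close to absent. Pdk4 stood at 41.4, 42.0 and 38.5 CPM with WM-3835, against 2.66, 1.57 and 2.43 CPM with DMSO, a log2 difference of 4.17 (SE 0.26), 18-fold. By size of rise, Angptl4 was 5th and Pdk4 9th of all 18670 genes.

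The acyl-CoA thioesterases Acot1 and Acot2, which cut fatty acyl-CoA into free fatty acid and CoA in the cytosol and in mitochondria, were higher in all inhibitor libraries by unequal amounts. Acot1 was at 150.2, 158.9 and 152.7 CPM with WM-3835, against 23.7, 20.5 and 22.8 CPM with DMSO, a log2 difference of 2.78 (SE 0.0956). Acot2 was at 71.8, 75.9 and 86.1 CPM with WM-3835, against 37.7, 32.0 and 33.8 CPM with DMSO, a log2 difference of 1.17 (SE 0.124). The genes lie 15624 bases apart on chromosome 12 and are near copies: 15% of the 75-base windows of Acot1 transcripts and 21.2% of those of Acot2 occur in another gene too. How such shared reads were counted is not stated, so the split between both genes is uncertain, while their sum was 231.9 ± 8.81 CPM with WM-3835 and 56.8 ± 4.44 CPM with DMSO (SD, n = 3 each).

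Plin2 encodes a coat protein of lipid droplets. It was at 21.4, 24.3 and 31.9 CPM with WM-3835, against 11.3, 11.3 and 13.5 CPM with DMSO, a log2 difference of 1.10 (SE 0.234). The lowest inhibitor library lay clearly above the highest DMSO library, and the inhibitor libraries were the more spread.

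Lpl went the other way. It encodes lipoprotein lipase, the secreted enzyme that frees fatty acids from circulating lipoproteins and that ANGPTL4 inhibits. Lpl was at 84.8, 119.6 and 90.7 CPM with WM-3835, against 216.1, 192.0 and 213.4 CPM with DMSO, a log2 difference of -1.08 (SE 0.123). In all 3 inhibitor libraries Lpl was thus low while Angptl4 was high. In bulk samples, fewer cells of a type and less RNA per cell cannot be told apart. Fibroblast markers, from cells that can also make LPL, summed to 79.6 to 95.9 CPM with WM-3835 and 91.0 to 111.5 CPM with DMSO, and adipocyte markers to 17.5 to 23.8 CPM with WM-3835 and 18.8 to 32.4 CPM with DMSO. Of 10 fibroblast markers 1 rose and 3 fell with WM-3835, and of 9 tested adipocyte markers none passed. Across all tested genes 9.34% rose and 9.35% fell. The adipocyte-defining Adipoq was at or under 0.848 CPM in every library and Lep was at 0 in all WM-3835 and DMSO libraries. The part of these cells in the Lpl difference was not tested.

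None of the 3 receptor genes was higher with WM-3835. Ppard was at 36.2, 39.9 and 39.5 CPM with WM-3835, against 51.0, 44.5 and 47.6 CPM with DMSO, a log2 difference of -0.31 (SE 0.112). Pparg was low throughout, at 1.25 to 1.54 CPM with WM-3835 and 1.62 to 2.17 CPM with DMSO, with a log2 difference of -0.49 (SE 0.456). Ppara was at 3.13 to 4.83 CPM with WM-3835 and 4.68 to 6.09 CPM with DMSO, and these ranges overlapped (log2 difference -0.41, SE 0.302, and -0.24 without WM-3835 2). Ppargc1a, whose product PGC-1α is a coactivator of PPARs and of mitochondrial genes, was at 13.7, 10.7 and 12.8 CPM with WM-3835, against 7.78, 7.86 and 8.19 CPM with DMSO, a log2 difference of 0.64 (SE 0.218).

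Counted over the set, 6 genes had all 3 WM-3835 libraries above all 3 DMSO libraries, where 23.1% of all tested genes did, and 3 had them all below, where 23% did. The choice of genes used this comparison, so nothing is read from these counts.

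**Figure D1:**
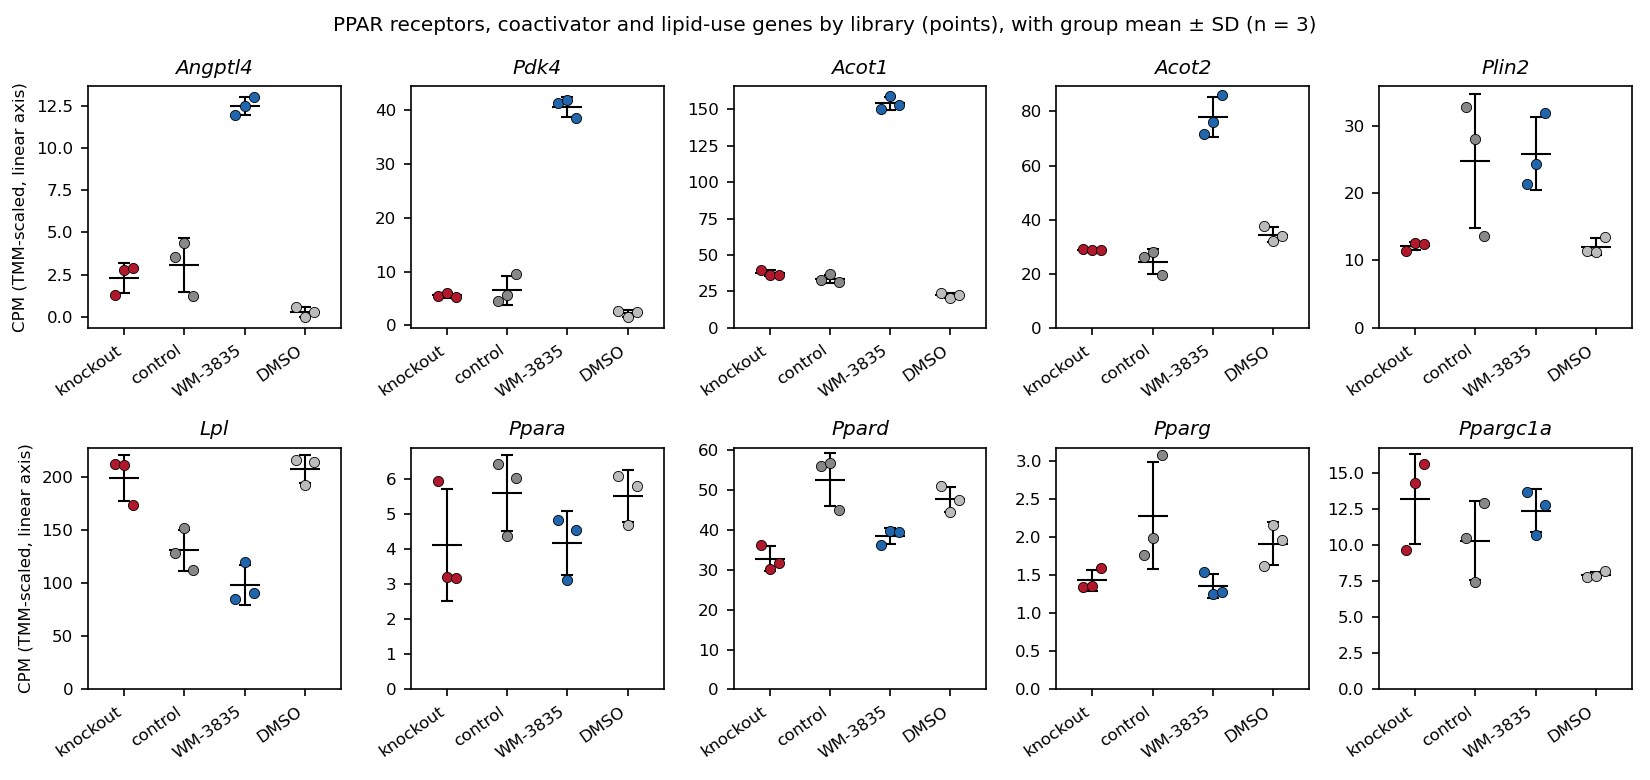
CPM of each of the 10 genes in all 12 libraries, by group (knockout, control, WM-3835, DMSO), 1 point per library, with group mean and SD. Angptl4, Pdk4 and Acot1 stand apart in the WM-3835 libraries, and Lpl is low there and high in the knockout.

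The Kat7 knockout asks whether loss of the enzyme itself moves the same genes. Of the 10, 1 was called higher (Lpl) and 2 lower (Plin2 and Ppard) at an adjusted p under 0.05, and 7 did not pass. Across all tested genes 6.12% were called higher and 8.06% lower in the knockout, 14.2% in all. None of the 4 genes furthest above DMSO in the inhibitor libraries, Angptl4, Pdk4, Acot1 and Acot2, passed.

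Angptl4 was at 1.29, 2.80 and 2.89 CPM in the knockout, against 3.57, 4.36 and 1.25 CPM in control libraries. The groups overlapped, with a log2 change of -0.41 (SE 0.516, 95% interval -1.49 to 0.68, adjusted p = 0.664). Pdk4 was at 5.48, 6.11 and 5.21 CPM in the knockout, against 4.45, 5.58 and 9.52 CPM in control libraries, and control 3 alone stood out. Its log2 change was -0.21 (SE 0.236, 95% interval -0.71 to 0.28, adjusted p = 0.607), and without control 3 it was 0.17 (adjusted p = 0.627), the sign turning.

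Acot1 and Acot2 were slightly higher in the knockout without passing. Acot1 was at 40.0, 36.6 and 36.2 CPM in the knockout, against 32.8, 36.7 and 31.3 CPM in control libraries. Its log2 change was 0.16 (SE 0.0911, 95% interval -0.03 to 0.35, adjusted p = 0.264). Acot2 was at 28.8 to 29.2 CPM in the knockout and 19.5 to 28.0 CPM in control libraries, a log2 change of 0.24 (SE 0.126, 95% interval -0.03 to 0.50, adjusted p = 0.236). The Acot2 groups did not overlap, which held for 12.2% of all tested genes in this direction.

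Plin2 fell in the knockout. It was at 11.4, 12.6 and 12.5 CPM in the knockout, against 32.7, 27.9 and 13.7 CPM in control libraries, a log2 change of -1.03 (SE 0.235, 95% interval -1.52 to -0.54, adjusted p = 0.00696). The knockout libraries were tight and the controls wide, and control 3 was hardly above the knockout. The hypoxia target list, on which Plin2 is not placed, moved in the same direction. Its member Ndrg1 was at 124.0, 155.7 and 142.7 CPM in the knockout and 864.4, 483.6 and 422.8 CPM in control libraries. Hilpda, from the droplet list, which inhibits the lipase of lipid droplets, was at 8.59, 7.69 and 7.27 CPM in the knockout and 35.3, 24.3 and 19.3 CPM in control libraries. As for Plin2, control 3 was the lowest of the controls for both. The part of hypoxia signalling in the Plin2 fall was not tested.

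Lpl rose in the knockout. It was at 211.4, 210.7 and 173.5 CPM in the knockout, against 128.2, 151.4 and 112.3 CPM in control libraries, a log2 change of 0.60 (SE 0.122, 95% interval 0.35 to 0.86, adjusted p = 0.00305). No control library reached the lowest knockout library. The summed markers of fibroblasts and adipocytes were lower in the knockout: fibroblast markers summed to 92.6 to 118.6 CPM in the knockout and 157.4 to 234.2 CPM in control libraries, and adipocyte markers, mostly Fabp4, to 38.6 to 54.3 CPM in the knockout and 103.3 to 137.5 CPM in control libraries. Of the 10 fibroblast markers 4 fell and none rose, and of 9 adipocyte markers 1 fell, Fabp4. Across all tested genes 8.06% fell and 6.12% rose in the knockout. Macrophage and dendritic cell markers summed to 71.7 to 84.7 CPM in the knockout and 80.7 to 133.8 CPM in control libraries, with Cd68 called higher and Lyz2 lower. Endothelial markers summed to 7.13 to 11.8 CPM in the knockout and 8.99 to 22.1 CPM in control libraries, and thymocyte markers to 11.2 to 16.7 CPM in the knockout and 23.96 to 29.8 CPM in control libraries. The part of these cells in the Lpl rise was not tested.

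Ppard fell in the knockout, with 36.4, 30.3 and 31.7 CPM in the knockout, against 56.1, 56.8 and 45.0 CPM in control libraries. Its log2 change was -0.68 (SE 0.112, 95% interval -0.92 to -0.45, adjusted p = 0.000565), and no library of one group reached the other. Pparg also lay lower in all knockout libraries, at 1.35 to 1.60 CPM against 1.77 to 3.09 CPM in controls, but did not pass (log2 change -0.67, SE 0.456, adjusted p = 0.373), and 13.5% of all tested genes were separated in this direction. Ppara, at 3.16 to 5.95 CPM in the knockout and 4.36 to 6.41 CPM in controls, did not pass (log2 change -0.44, SE 0.303, adjusted p = 0.375). Nor did Ppargc1a, at 9.70 to 15.6 CPM in the knockout and 7.47 to 13.0 CPM in controls (log2 change 0.36, SE 0.216, adjusted p = 0.308).

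The calls for Plin2 and Lpl did not hold once Xist entered the model as a covariate (Plin2 log2 -0.99, SE 0.389, adjusted p = 0.199; Lpl 0.45, SE 0.186, adjusted p = 0.228). The SE in the main model was 0.235 for Plin2 and 0.122 for Lpl. With knockout 3, the knockout library with little Xist, as the only one, the log2 changes were -0.98 for Plin2 and 0.42 for Lpl. Among knockout and control libraries, Xist differed widely only within the knockout. The covariate fit thus also leans on knockout 3 and is no separate check. Ppard kept its call in all 23 alternatives, between -0.77 and -0.61.

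**Figure D2:**
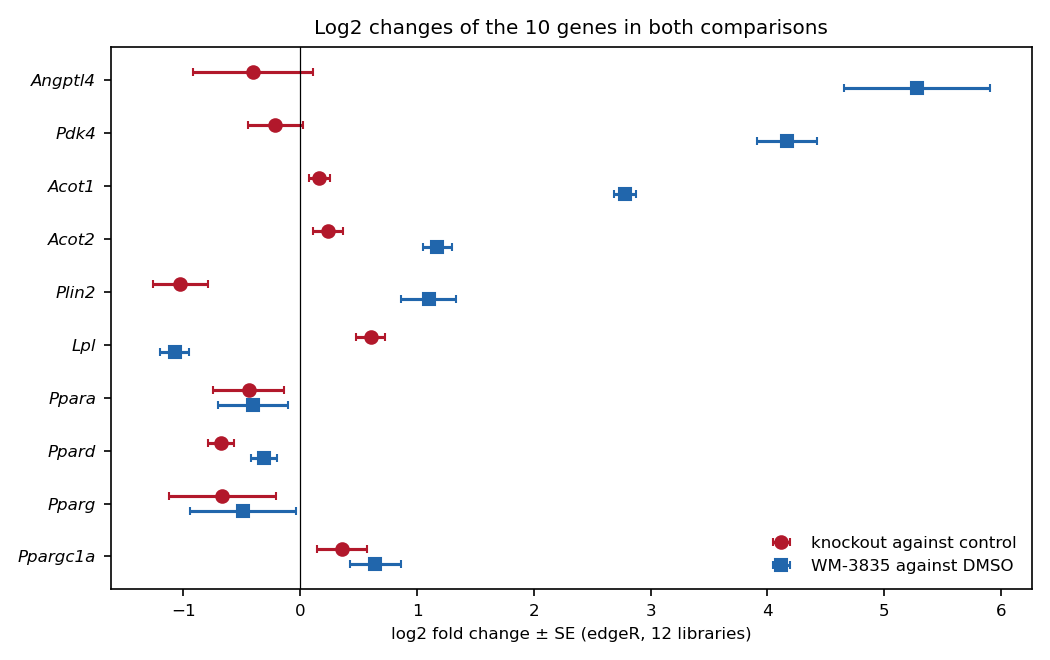
log2 change of each gene in knockout against control (with SE) and in WM-3835 against DMSO (with SE), from the same fit. Plin2 and Lpl lie on opposite sides of 0 in the 2 comparisons, and Ppard lies below 0 in both.

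Side by side, Plin2 was at -1.03 in the knockout and 1.10 with WM-3835, Lpl at 0.60 and -1.08, Ppard at -0.68 and -0.31, and Angptl4 at -0.41 and 5.28 on the log2 scale. Whether the effects differ was not tested for the 10 genes, because the inhibitor comparison was used to choose them. The levels in both comparison groups, tamoxifen-treated controls and DMSO-treated wild-type cultures, are set side by side without a test. These groups also differed in Xist, at 2.34 to 3.17 CPM in control and 1382 to 1898 CPM in DMSO libraries. Adipocyte markers summed to 103.3 to 137.5 CPM in control and 18.8 to 32.4 CPM in DMSO libraries. Fibroblast markers summed to 157.4 to 234.2 CPM in control and 91.0 to 111.5 CPM in DMSO libraries, while thymic epithelial sums overlapped. The part of these differences in the gene levels was not tested. Angptl4 was at 1.25 to 4.36 CPM in control libraries and at 0.559 CPM or below with DMSO, and Pdk4 at 4.45 to 9.52 CPM in control libraries and 1.57 to 2.66 CPM with DMSO. For both genes the order from high to low was WM-3835, control, knockout, DMSO, with control and knockout overlapping. For Lpl the order was DMSO, knockout, control, WM-3835, with DMSO and knockout overlapping, and control 3, at 112.3 CPM, below the highest WM-3835 library.

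Levels can be compared between genes only per length, as TPM, the length-adjusted share of the library. Among the receptors, Ppard dominated in every library: its level was 24.2 ± 2.12 TPM in the knockout, 38.7 ± 4.29 TPM in control, 28.4 ± 1.49 TPM in WM-3835 and 35.1 ± 2.43 TPM in DMSO libraries (SD, n = 3 each). That was 89.0%, 89.4%, 90.6% and 89.7% of the summed receptor level in the same groups, while Ppara and Pparg stayed at group means of 1.29 to 1.76 and 1.63 to 2.74 TPM. The receptor total was 27.2 TPM in the knockout, 43.1 TPM in control, 31.3 TPM with WM-3835 and 39.1 TPM with DMSO.

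Pdk4 was the least abundant pyruvate dehydrogenase kinase in knockout, control and DMSO libraries. It took 4.15% of the summed kinase level in the knockout, 3.86% in control, 21.1% with WM-3835 and 1.53% with DMSO. Pdk1, the most abundant kinase, was at 44.7 ± 5.44 TPM with WM-3835 and 46.4 ± 0.908 TPM with DMSO. Acot1 held 43.9% of the summed level of the 13 acyl-CoA thioesterases with WM-3835 and 13.0% with DMSO, against 21.2% in the knockout and 20.6% in control. The most abundant thioesterase with DMSO, Acot13, a mitochondrial enzyme, was at 90.1 ± 2.88 TPM with WM-3835 and 91.7 ± 4.98 TPM with DMSO. Acot3, a neighbour of Acot1 in the gene cluster, was detected at 0.44 TPM with WM-3835 and 0.04 TPM with DMSO and did not pass (adjusted p = 0.145). Plin2 was 12.4% of the summed perilipin level in the knockout, 21.8% in control, 22.5% with WM-3835 and 13.1% with DMSO, behind Plin3 in every group.

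**Figure D3:**
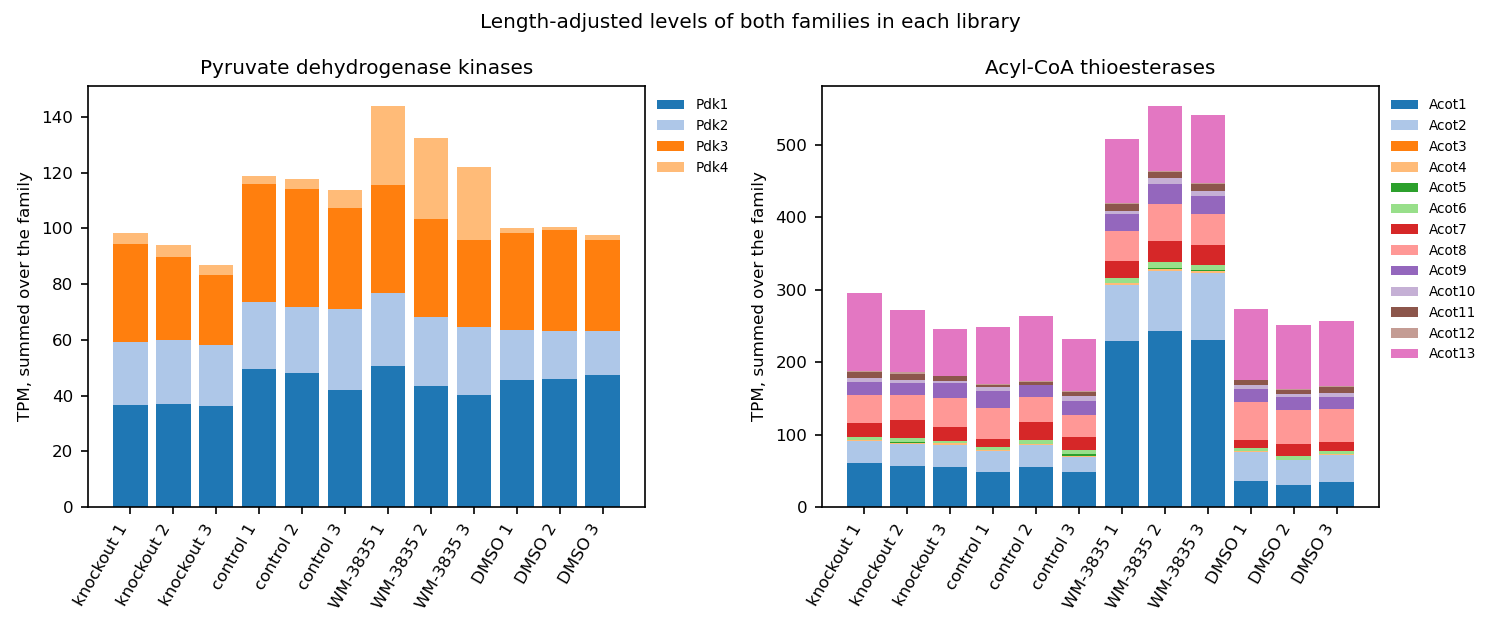
TPM of the pyruvate dehydrogenase kinases (left) and of the 13 acyl-CoA thioesterases Acot1 to Acot13 (right), stacked by gene, 1 bar per library. The Pdk4 and Acot1 segments are largest in the 3 WM-3835 bars, where they average 21.1% and 43.9% of the stack.

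The rest of the pathway was read from 8 lists with 128 genes outside the set, 123 of them tested. With WM-3835, 40 rose and 6 fell, a median log2 change of 0.21 beside -0.01 over all genes, where 18.7% passed, 9.34% rising and 9.35% falling. In the knockout, 14 rose and 16 fell, with a median of -0.03 beside -0.01 over all genes. Without knockout 3 the knockout falls numbered 9, and with the Xist covariate 3 rose and 5 fell. The lists were chosen with earlier results known, so these counts are descriptions.

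Mitochondrial fatty acid oxidation was the list with the largest number of inhibitor rises: 13 of 20 genes rose and none fell, with a median log2 change of 0.45. Cpt1a, the carnitine acyltransferase that admits long-chain fatty acids to mitochondria, was at 453.2, 476.0 and 439.1 CPM with WM-3835, against 208.8, 215.0 and 201.1 CPM with DMSO (log2 change 1.13, SE 0.0684, adjusted p = 5.96e-09). Acadl, the long-chain acyl-CoA dehydrogenase, rose by 1.02 (SE 0.0783), Acaa2, the thiolase of the last step, by 1.08 (SE 0.127), and Eci2, an enoyl-CoA isomerase, by 0.82 (SE 0.0885) on the log2 scale, with adjusted p between 7.72e-08 and 7.85e-06. In the knockout 4 of the 20 rose and none fell, with a median of 0.01: Cpt1a by 0.33 (adjusted p = 0.00305), Echs1 by 0.37 (adjusted p = 0.0073), Hadh by 0.29 (adjusted p = 0.0161) and Hadha by 0.23 (adjusted p = 0.0487). Cpt1a was at 251.9, 278.0 and 261.1 CPM in the knockout, against 204.0, 220.4 and 202.8 CPM in control libraries, so no control library reached a knockout one. The inhibitor effect on Cpt1a exceeded the knockout effect by 0.80 (interaction, adjusted p = 3.13e-05), a test that 10.1% of all genes passed. With the Xist covariate the knockout changes were 0.34 for Cpt1a (adjusted p = 0.0914), 0.34 for Echs1 (adjusted p = 0.187), 0.28 for Hadh (adjusted p = 0.226) and 0.31 for Hadha (adjusted p = 0.159), so sizes stayed near those above and none passed. The Hadha call was also lost without control 2, control 3, knockout 1, knockout 3, DMSO 1, DMSO 3 or WM-3835 3, at adjusted p of 0.0562 to 0.135.

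Uptake, binding and activation genes went in different directions. With WM-3835, 8 of 16 rose and none fell, among them Slc27a1, a fatty acid transporter (log2 0.70, adjusted p = 1.83e-06), Acsl4, an acyl-CoA synthetase (0.56, adjusted p = 0.000193), Slc27a3 (0.61, adjusted p = 0.000416) and Dbi, the acyl-CoA binding protein (0.62, adjusted p = 0.000756). In the knockout 2 rose and 6 fell, a median log2 change of -0.44. Fabp4, an adipocyte and macrophage fatty acid binding protein, was at 31.4, 41.7 and 43.9 CPM in the knockout, against 100.3, 94.7 and 133.1 CPM in control libraries (log2 -1.49, adjusted p = 0.00012), Fabp5 fell by 0.68 on the log2 scale (adjusted p = 0.000255) and Acsl3, an acyl-CoA synthetase, by 0.52 (adjusted p = 8.35e-05). With the Xist covariate the Fabp4 change was -1.22 and did not pass (adjusted p = 0.065). Slc27a3 fell in the knockout (log2 -0.66, adjusted p = 0.000472), and the inhibitor effect exceeded the knockout effect by 1.27 (interaction, adjusted p = 2.56e-05). Its knockout change with the Xist covariate was -0.52 and did not pass (adjusted p = 0.109).

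Lipoprotein lipase regulators and lipoprotein receptors gave 3 rises and 2 falls with WM-3835 and 0 rises and 5 falls in the knockout among 14 genes. Apoe, an apolipoprotein that carries remnants to receptors, was at 56.6, 62.8 and 66.3 CPM with WM-3835, against 130.8, 120.3 and 132.2 CPM with DMSO (log2 -1.05, adjusted p = 1.25e-07), and at 63.9, 55.4 and 56.7 CPM in the knockout, against 151.2, 162.7 and 158.9 CPM in control libraries (log2 -1.43, adjusted p = 1.44e-08). Unlike Lpl, it thus fell in both comparisons. Lipg, endothelial lipase, fell with WM-3835 (log2 -1.12, adjusted p = 5.55e-06). Lrp1, a receptor of remnants, rose with WM-3835 (log2 0.57, adjusted p = 0.00104) and fell in the knockout (-0.51, adjusted p = 0.0048), with a difference of 1.08 (interaction, adjusted p = 0.00016). The Lipg fall in the knockout (log2 -0.50, adjusted p = 0.0136) was lost without knockout 1 (-0.39, adjusted p = 0.0748), and with the Xist covariate Lrp1 was at -0.50 (adjusted p = 0.156) and Lipg at -0.33 (adjusted p = 0.397), neither passing. Gpihbp1, which anchors lipoprotein lipase to endothelium, was at or under 0.82 CPM in all libraries.

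In the droplet and lipase list, 1 rose and 1 fell with WM-3835 among 16 genes, the triglyceride lipase Pnpla2 (log2 0.76, adjusted p = 1.66e-05) and the monoglyceride lipase Mgll (-0.64, adjusted p = 0.00155). In the knockout 1 rose and 2 fell: Pnpla2 rose (0.59, adjusted p = 0.000516), and Hilpda (-1.74, adjusted p = 1.25e-05) and the perilipin Plin4 (-1.87, adjusted p = 0.0157) fell. The Plin4 call was lost without knockout 1 (-1.69, adjusted p = 0.0625) or knockout 3 (-1.57, adjusted p = 0.0655).

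PPAR partners and coregulators gave 6 rises and 2 falls with WM-3835 and 4 rises and 1 fall in the knockout among 17 genes. The retinoid X receptors Rxra and Rxrb, the partners themselves, did not pass in either comparison: the log2 changes with WM-3835 were -0.01 (SE 0.0723) and -0.07 (SE 0.0817). With WM-3835, Ppargc1b, the relative of Ppargc1a, rose (log2 1.20, adjusted p = 0.000108), as did the corepressor Nrip1 (0.64, adjusted p = 0.000135) and Med1 (0.41, adjusted p = 0.000504), a mediator subunit that binds PPARs, while the deacetylase Sirt1 fell (-0.84, adjusted p = 6.37e-07). In the knockout the coactivators Ncoa3 (0.46, adjusted p = 0.000858) and Ncoa2 (0.31, adjusted p = 0.00575) rose. With the Xist covariate Ncoa2 was at 0.24 and did not pass (adjusted p = 0.246).

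Peroxisomal, omega-oxidation and ketogenesis genes gave 3 rises and 1 fall with WM-3835 among 16. Crat and Crot, which move acyl groups onto carnitine, rose with WM-3835 by 0.88 and 0.43 on the log2 scale (adjusted p = 0.000374 and 0.00274), and Fgf21, a fasting hormone and PPARα target in liver, fell (-0.74, adjusted p = 4.06e-05). Of the 13 other thioesterases 2 rose with WM-3835, among them Acot7 by 1.03 (adjusted p = 0.00274), and 1 in the knockout, Acot11 by 0.68 (adjusted p = 0.0106), which was at 0.44 with the Xist covariate and did not pass (adjusted p = 0.365). Of 11 genes of the pyruvate dehydrogenase kinases, phosphatases and subunits, 4 rose with WM-3835, among them Pdk2 by 0.57 (adjusted p = 0.0033). In the knockout 1 rose, the subunit gene Dlat (0.24, adjusted p = 0.0378), and 2 fell, the kinases Pdk1 (-0.35, adjusted p = 0.0147) and Pdk3 (-0.43, adjusted p = 0.0431). These calls were fragile. Pdk1 did not pass without control 1, knockout 2 or knockout 3 (-0.34 to -0.29, adjusted p = 0.0505 to 0.0585), and Dlat did not without control 1, any 1 knockout library, DMSO 1 or DMSO 3 (0.24 to 0.26, adjusted p = 0.0503 to 0.0723). Pdk3 passed without control 3 or knockout 1 and in no other fit that left out 1 library (-0.42 to -0.30, adjusted p = 0.0563 to 0.178). With the Xist covariate none of these passed (Pdk1 -0.36, adjusted p = 0.207; Dlat 0.25, adjusted p = 0.263; Pdk3 -0.71, adjusted p = 0.0714).

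**Figure D4:**
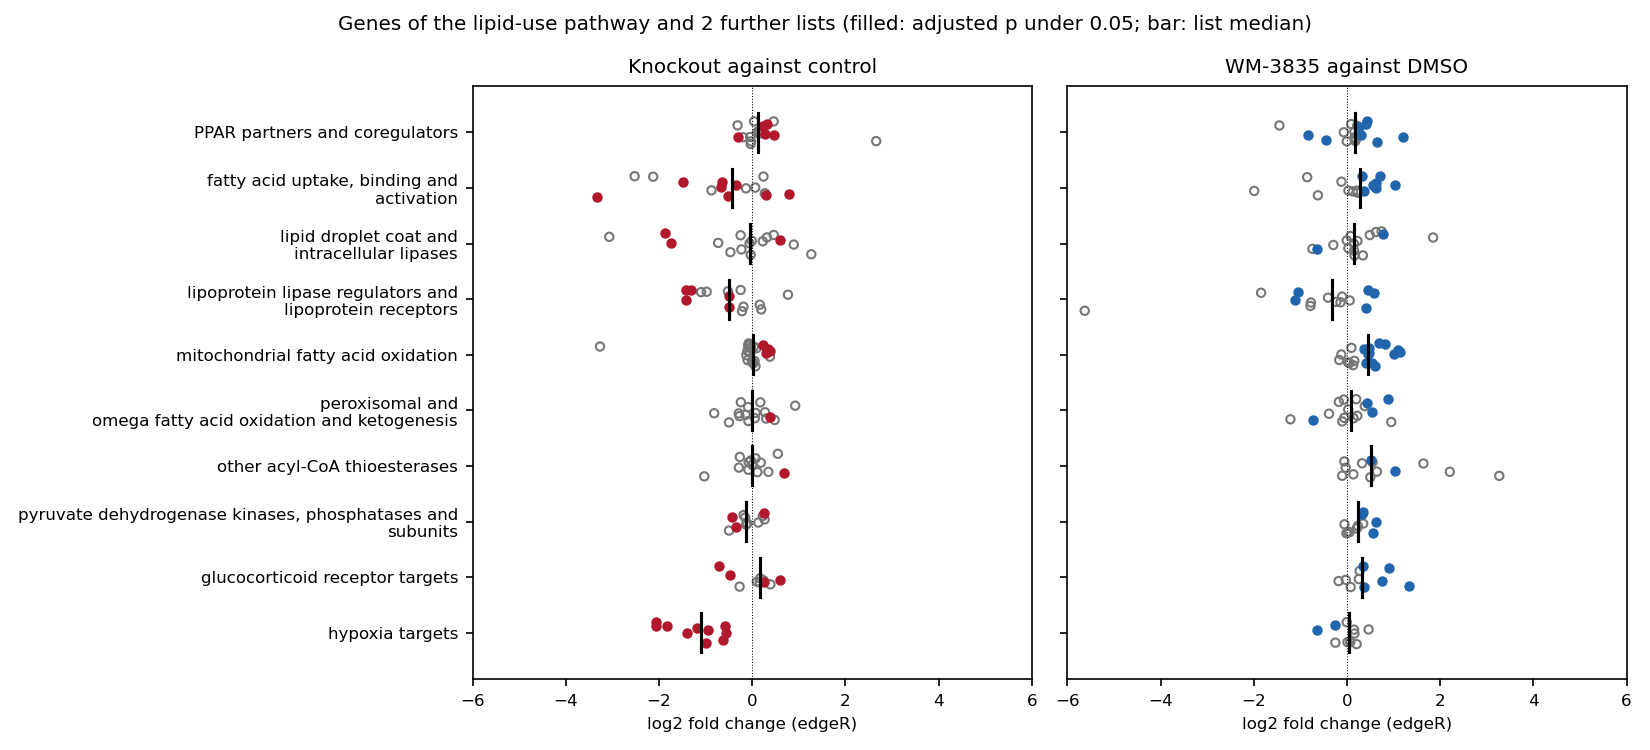
log2 change of each tested gene (1 point per gene, filled where the adjusted p was under 0.05, bar at the list median) in the 8 pathway lists and the lists of glucocorticoid receptor and hypoxia targets, for knockout against control (left) and WM-3835 against DMSO (right). The median of mitochondrial oxidation genes is at 0.45 with WM-3835 and 0.01 in the knockout.

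Angptl4 and Pdk4 are also known as targets of the glucocorticoid receptor, and Angptl4 and Plin2 as genes that hypoxia raises in other cells, so both lists were set beside them. Of 10 glucocorticoid receptor targets, 5 rose with WM-3835 and none fell (median log2 change 0.31), among them Sgk1, a kinase (1.33, adjusted p = 1.03e-05), and the metallothioneins Mt2 (0.90, adjusted p = 1.75e-07) and Mt1 (0.76, adjusted p = 3.31e-07). In the knockout 2 rose, Fkbp5 (0.59, adjusted p = 0.0016) and Mt2 (0.26, adjusted p = 0.0272). There 2 fell, Ddit4, a stress-induced inhibitor of growth signalling (-0.71, adjusted p = 1.03e-05), and Errfi1 (-0.49, adjusted p = 0.0081). The Mt2 call held in 16 of 23 alternatives and the Errfi1 call in 20. All 10 hypoxia targets fell in the knockout (median -1.09), whereas 2 of 10 fell with WM-3835 (median 0.04). Across all tested genes 9.34% rose and 9.35% fell with WM-3835, and 6.12% rose and 8.06% fell in the knockout. Whether these signals took part in the PPAR target values was not tested.

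**Figure D5:**
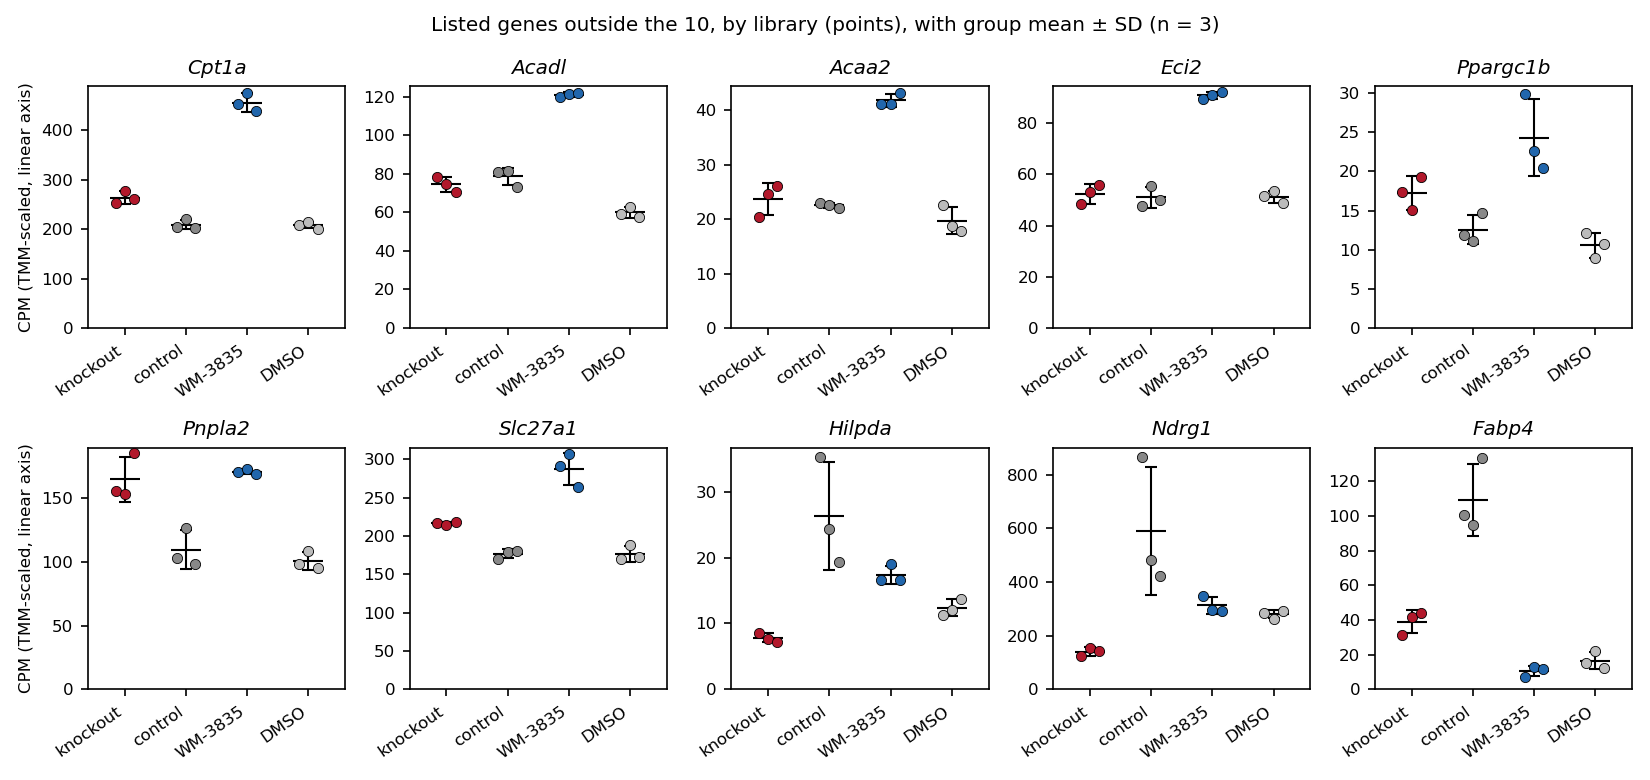
CPM of 10 listed genes outside the set, chosen after their values were seen, by group, 1 point per library with group mean and SD. Cpt1a, Acadl, Acaa2 and Eci2 are highest in the WM-3835 libraries, and Hilpda, Ndrg1 and Fabp4 in the controls.

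Among 13254 genes with a mean log2 CPM of at least 1, those whose log2 CPM over the 12 libraries was most like that of Pdk4 were Tbk1 (Pearson r 0.985), Syk (0.976), Camta1 (0.963), C1ra (0.958) and Ifi207 (0.958). Most like Angptl4 were Celsr2 (0.953), Nipal3 (0.948), Hap1, Cd14 and S1pr2 (0.939 each). Within the set, Pdk4 and Acot1 were most alike (0.97), and Lpl ran against Pdk4 (-0.832). These are descriptions over 12 libraries that share the group differences.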

How the data were processed

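The deposited values are raw counts per gene, which the authors made with featureCounts on mm10, per the submitters' processing notes; per the file headers each row pairs an Entrez ID with a symbol, a length and a count. For the aligner, the annotation and the strand option, the sources used here give nothing, and the library kit (75-base pairs) does not mark strand. The table lists 27179 genes; the 1312 without a symbol (0.657% to 0.743% of a library's counts) were left out. Total counts per library set the precision of low genes such as Angptl4 with DMSO.

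Libraries were scaled by TMM and filtered with filterByExpr in edgeR 4.0.16 (R 4.3.3), leaving 18670 genes. All 12 libraries entered 1 quasi-likelihood model of 4 group means, with two-sided Benjamini-Hochberg adjustment over all genes and a threshold of 0.05. Intervals are 95%. The p-values set each difference against a spread per gene that all 4 groups share. That spread was unequal, with a biological coefficient of variation of 0.294 in knockout and 0.469 in control libraries. It was 0.125 in WM-3835 and 0.103 in DMSO libraries. Knockout p-values thus rest in part on the tighter WM-3835 and DMSO libraries. With only the 6 libraries of each comparison, calls went from 2646 to 1157 in the knockout and from 3490 to 6070 with WM-3835. TPM were computed from the raw counts and the listed lengths, and promoters were taken from RefSeq (GRCm38.p6). Correlations used log2 CPM with a prior count of 2. The code was tested on simulated counts.

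The 10 genes, the lists and the tests were chosen with earlier results of these data known. Named list genes are up to 4 per list and comparison with the smallest adjusted p among called genes; a few are not listed in the text or not reported here, and Rxra, Rxrb, Acot3, Acot13, Cd68, Lyz2 and Gpihbp1 were added for their roles after their values were seen. The main model used no pairing by replicate number. Correlations of deviations were 0.00218 to 0.058 for libraries of the same number and -0.0561 to 0.0168 for different numbers. With 3 libraries per group these values cannot show whether the samples were paired. Alternatives were DESeq2 1.42.0, limma-voom (limma 3.58.1) with and without weights, RLE or upper-quartile scaling, other filters, single libraries left out, a 6-library fit, a replicate block and Xist as a covariate.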

Additional observations from a re-analysis of the deposited data

Results flagged for a closer look

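Plin2 and Lpl separated in opposite directions in the 2 comparisons: all 3 knockout libraries lay below the controls for Plin2 and above them for Lpl, and all 3 WM-3835 libraries lay above DMSO for Plin2 and below it for Lpl. The inhibitor effect minus the knockout effect was 2.13 for Plin2 and -1.68 for Lpl on the log2 scale. This difference was not tested, because the inhibitor comparison was used to choose the genes. Of all tested genes, 13.5% lay fully below and 12.2% fully above the controls in the knockout. With WM-3835, 23.1% lay fully above DMSO and 23% fully below it. The share of genes separated in opposite directions was not counted.

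For named list genes outside the set, the inhibitor effect was compared with the knockout effect by the interaction term of the same edgeR model. These genes had been picked for a small adjusted p in at least 1 of the comparisons. Only genes that passed are given, and a few are not reported here. Across all tested genes 10.1% passed, a share that cannot be set beside genes picked in this way. The log2 difference (inhibitor minus knockout) was positive for Lpin1 (0.56), Acsl3 (0.65), Fabp5 (1.00), Slc27a3 (1.27), Hilpda (2.23), Plin4 (2.49), Apoe (0.38), Lrp1 (1.08), Cpt1a (0.80), Nrip1 (0.51), Slc27a1 (0.41), Dbi (0.97), Acadl (1.09), Eci2 (0.79), Acaa2 (1.01), Crat (0.83), Ech1 (0.68), Pdk2 (0.75) and Pdha1 (0.50). It was negative for Lipg (-0.62), Sirt1 (-0.65) and Fgf21 (-0.65). In the glucocorticoid list it was 1.07 for Ddit4, -0.51 for Fkbp5, 0.74 for Errfi1, 0.64 for Mt2, 0.66 for Mt1 and 0.94 for Sgk1. In the hypoxia list it was 2.23 for Ndrg1, 1.89 for Egln3, 0.96 for Bnip3 and 0.37 for P4ha1. Adjusted p ranged from 6.51e-06 for Acadl to 0.0476 for Apoe.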

How the results depend on the processing

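All 10 genes kept the sign of their WM-3835 values in 21 alternatives. Sizes moved by over 1.5 times in fold for Angptl4, between 4.83 (without DMSO 2) and 6.13 (without DMSO 1) on the log2 scale. Ppara lay between -0.53 (without WM-3835 1) and -0.24 (without WM-3835 2), Pdk4 between 3.99 and 4.32 and Lpl between -1.24 and -0.98 on the log2 scale. In the knockout, 226 of 230 values kept their side of the threshold, and the other 4 were Plin2 and Lpl, each lost under an Xist covariate and under knockout 3 as sole knockout library. With the Xist covariate the counts were 0 members higher and 1 lower, 3 pathway genes higher and 5 lower, and 480 of all genes; with knockout 3 alone they were 0, 1, 3, 8 and 704. With quality weights 7 pathway genes were higher and 7 lower in the knockout and 1180 genes were called, and with WM-3835 10 pathway genes were lower and 6589 genes were called. With only the 6 libraries of each comparison, 5 pathway genes were higher, 9 lower and 1157 genes called in the knockout, and 6070 genes with WM-3835. Leaving out single libraries gave 9 to 16 pathway genes lower in the knockout. The cause of these changes was not tested. Upper-quartile scaling put 60.1% of calls with WM-3835 on the lower side, against 50% in the main scaling. With the replicate block 11 pathway genes were higher and 16 lower in the knockout and 2542 genes were called.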
